A study of Mus musculus with 2 samples.

Results

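The genes described here encode the proteins of the cytosolic ribosome, examined in chromatin accessibility data from mouse CFU-E cells. They were chosen by name alone: protein-coding genes of the mm10 annotation whose symbol starts with Rpl or Rps and a digit, together with Rplp0, Rplp1, Rplp2 and Rpsa, without the Rps6 kinase genes and without symbols that contain -ps. The rule found 86 of 21938 protein-coding genes, spread over 19 chromosomes. They comprise 46 core genes of the large (60S) subunit, 31 core genes of the small (40S) subunit, 8 paralogs of core genes and Rps19bp1, which encodes a protein that binds Rps19 and is no part of the ribosome.

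CFU-E cells are progenitors that need erythropoietin and give rise to red cells only. They were primary erythroid progenitors of adult male mice of the strain C57BL/6J, 5 to 6 weeks old, assayed without a stated treatment or genetic change. ATAC-seq uses the Tn5 transposase to place sequencing adapters into DNA that is free of nucleosomes. The 2 libraries, numbered biological replicates 1 and 2 and made from 50000 cells each, form 1 group, so no comparison between conditions exists. Both carry the same donor identifier and the labels do not say that they came from separate animals, so their spread may be technical, and whether they are independent cannot be told from these lists. Each library is therefore given by its own value, with no mean or SD.

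Every mature ribosome holds a single copy of nearly all of these proteins, and their genes are transcribed together in growing cells. Their mRNAs begin with a C followed by a run of pyrimidines, the 5′ terminal oligopyrimidine (TOP) motif, through which mTOR and Larp1 control their translation. Red cell progenitors depend on a high rate of ribosome production. Inherited loss of 1 copy of any of several of these genes causes Diamond-Blackfan anemia, in which erythroid progenitors fail, and unassembled Rpl5 and Rpl11 bind Mdm2 and so stabilise p53.

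The measurements are peak lists. The series list was made by the authors from both libraries and thresholded on the irreproducible discovery rate (IDR), a measure of how well peaks repeat, and each replicate has such a list of its own. Records that overlapped or touched were merged, which left 24394 regions for the series list, and 18685 and 17854 for the lists of replicates 1 and 2. A gene had a promoter region when a region lay within 1 kb of any of its annotated starts. The strength of a region is its fold enrichment over the local background as the authors computed it. It is used to describe and rank regions within 1 list only, since each list has its own scale. The number of reads behind the lists is unknown, so intervals on shares of genes (exact Clopper-Pearson, 95%) cover counting error only.

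The cell type label was checked against marker genes. All 11 erythroid markers, among them Gata1, Klf1, Epor and Tfrc, had a promoter region in the series list, and 10 of 11 had a region in each replicate list. Alas2 was the marker absent from both. None of 9 markers of lymphoid, myeloid, megakaryocytic, mast or liver cells had a promoter region in any of the lists.

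Promoter regions were found at nearly all ribosomal protein genes. In the series list, 82 of 86 members (95.3%, interval 88.5 to 98.7%) had a promoter region, beside 45.8% of all protein-coding genes. The same count of 82 was found in the replicate 1 list, where 43.5% of all genes had a region, and in the replicate 2 list, where 42.6% did. It was also 82 in the conservative IDR list (45.7% of all genes) and in the less strict overlap list (52.1%). All 77 core genes, 46 of the large and 31 of the small subunit, had a region in each of these lists, and so did Rps19bp1. The principal start, meaning the start of the transcript ranked highest by the APPRIS annotation, lay inside a region in all 82.

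The 4 members without a promoter region were all paralogs, and the same 4 lacked one in the series list, both replicate lists, the conservative list and the overlap list. Rpl10l and Rpl39l are known as testis-expressed counterparts of Rpl10 and Rpl39. Rpl3l is the counterpart of Rpl3 in heart and skeletal muscle. Rps27rt is a retrogene of Rps27. Rps27rt and Rpl10l each have a single exon, and they are the only 2 such members, beside a median of 5 exons in the core genes. Rpl39l has 3 exons and Rpl3l has 10.

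The distance to the nearest region of the series list was 48.5 kb for Rps27rt, 188 kb for Rpl39l and 775 kb for Rpl10l. At Rpl3l the nearest region, with a fold of 8.06, lay 3.05 kb from a start and closest to a start of Ndufb10. Thus 3 of the 4 genes lay far from any region, and Rpl3l lay near one outside the 1 kb window. The CpG content around the start, as the observed number of CpG dinucleotides over that predicted from base composition, was 0.0893 at Rpl3l. It was 0.633 at Rps27rt, 0.643 at Rpl10l and 0.836 at Rpl39l, so these 3 lie nearer the member median of 0.837 than Rpl3l does.

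Rps27 and its retrogene show the contrast within 1 sequence. The RefSeq sequences on GRCm38.p6 (the assembly named mm10 by genome browsers), from 60 bases before to 30 bases after the start base and written 5′ to 3′ on the strand of the gene, are shown because the retrogene carries the start of the parent mRNA without the parent promoter. The capitals mark the part of the longest run shared by both, 38 bp in all, that falls inside the printed window. The Rps27 sequence is chr3:90213619-90213708, minus strand, and the Rps27rt sequence is chr9:114982710-114982799, minus strand.
Rps27: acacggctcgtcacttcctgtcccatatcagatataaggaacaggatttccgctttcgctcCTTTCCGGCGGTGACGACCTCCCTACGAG
Rps27rt: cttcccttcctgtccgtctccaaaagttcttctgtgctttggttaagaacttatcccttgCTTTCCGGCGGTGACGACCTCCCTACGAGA
The shared run began at base 2 of Rps27 and base 1 of Rps27rt, counted from each start base as 1. Rps27 had a fold of 14.6 in the series list, beside 14.6 in replicate 1 and 13.0 in replicate 2. Rps27rt, with these letters at its start and other bases upstream, had no region in any of the lists. Reads that fall in identical copies cannot always be placed, and the sources used here do not say how the authors treated such reads.

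The start sequences of the other 3 members without a region follow in the same frame, shown so that they can be compared with the accessible promoters printed later. Rpl10l is chr12:66284372-66284461 on the minus strand, Rpl39l is chr16:10170168-10170257 on the plus strand and Rpl3l is chr17:24727766-24727855 on the plus strand.
Rpl10l: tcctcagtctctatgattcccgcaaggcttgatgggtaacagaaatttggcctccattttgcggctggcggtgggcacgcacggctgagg
Rpl39l: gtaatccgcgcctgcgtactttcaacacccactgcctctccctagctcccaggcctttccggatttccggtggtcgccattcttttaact
Rpl3l: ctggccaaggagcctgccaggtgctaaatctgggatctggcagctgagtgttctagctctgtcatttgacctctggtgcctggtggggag
None of the 3 printed windows holds the ETS letters CCGGAAG or their reverse complement CTTCCGG, which are counted at the accessible promoters later. Within 100 bp of the strongest summit, only 28 of the 82 accessible members held them. Their absence here therefore does not set these 3 genes apart.

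The other 4 paralogs had promoter regions, and their folds stood in the upper part of the members' range. Rpl7l1 had 15.6 in the series list, beside 14.1 in replicate 1 and 15.3 in replicate 2. Rps27l, a p53-inducible relative of Rps27, had 15.6, 15.0 and 14.7 in the same order. Rpl22l1, the relative of Rpl22 that can take its place in the ribosome, had 15.4, 14.7 and 14.3. Rpl36al, nearly identical in protein to Rpl36a, had 12.7, 11.9 and 12.4. Of the 8 paralogs, 4 were thus without a region. In the series list 3 were among the 5 strongest members and Rpl36al ranked 36 of 82.

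Paralog and parent differed in both directions. Rpl22 had a fold of 11.3 in the series list, below the 15.4 of Rpl22l1, and Rpl7 had 9.41, below the 15.6 of Rpl7l1. Rpl36a had 11.7 beside 12.7 at Rpl36al. Rps27 had 14.6 beside 15.6 at Rps27l. In these 4 pairs the paralog had the higher fold in the series list, whereas in the pairs of Rpl3, Rpl10, Rpl39 and Rps27 with Rpl3l, Rpl10l, Rpl39l and Rps27rt only the parent had a region (folds 8.33, 13.0, 12.4 and 14.6). Within the replicate lists the order of Rps27 and Rps27l was the same, 14.6 and 15.0 in replicate 1 and 13.0 and 14.7 in replicate 2.

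**Figure D1:**
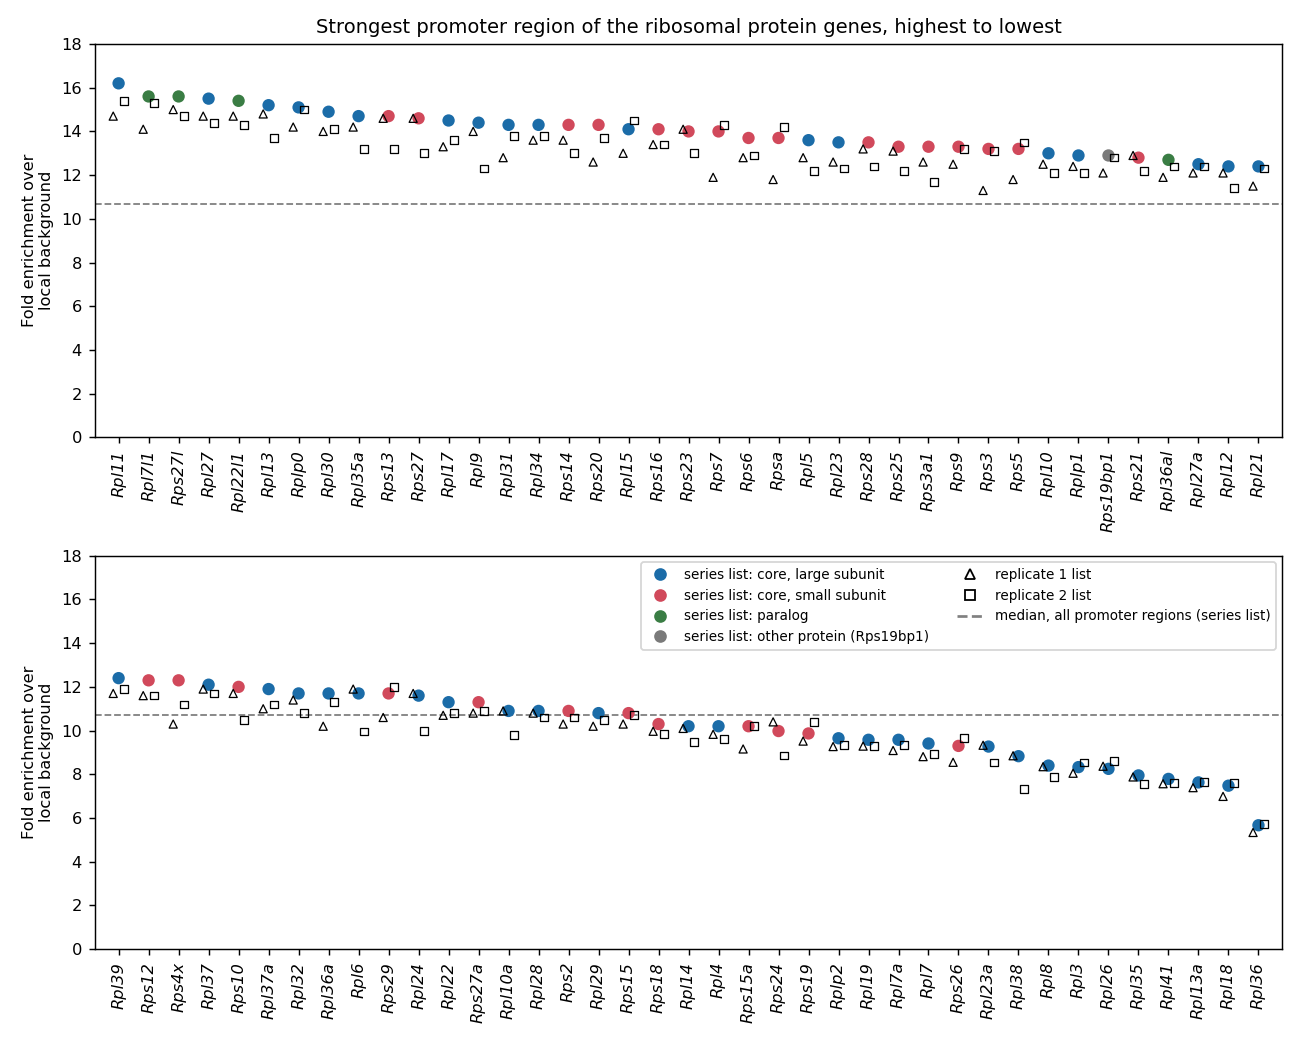
Fold enrichment over local background (vertical axis, from 0) of the strongest promoter region of 78 members, ordered from highest to lowest over both panels. Filled circles are the series list, coloured by kind of gene, open triangles the replicate 1 list and open squares the replicate 2 list, and the dashed line is the series median of all promoter regions (10.7); 57 of the members shown lie above it and 21 below, and they run from 16.2 at Rpl11 to 5.67 at Rpl36.

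Where a region was present, its fold was moderately above that of other promoters. The median over the 82 members was 12.3 in the series list (quartiles 10.2 and 13.9), beside 10.7 over the promoter regions of all protein-coding genes (quartiles 8.37 and 13.0). In replicate 1 the medians were 11.7 and 10.4, and in replicate 2 they were again 11.7 and 10.4. Ranked by fold, the members had a median percentile of 84.3 among all protein-coding genes, where genes without a region share the lowest rank, and of 68.6 among genes with a region. Of the 82 members, 59 (72.0%) lay above the median of all promoter regions and 7 (8.54%) in their top 10%, which began at a fold of 14.9. The members were therefore shifted above the middle of the promoter distribution without being concentrated at its top. In the series list 473 other genes had a higher fold than Rpl11, the highest member there.

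Rpl11, which with Rpl5 and 5S rRNA forms the particle that inhibits Mdm2, had the highest fold of the members in the series and replicate 2 lists. In replicate 1 it was not the highest, and Rps27l (15.0) and Rpl13 (14.8) were among those above it. The region of Rpl11, chr4:136052740-136053816 on mm10, had a fold of 16.2 in the series list, beside 14.7 in replicate 1 and 15.4 in replicate 2. Rpl5 had 13.6, 12.8 and 12.2 in the same order. Rpl27, whose loss is among the causes of Diamond-Blackfan anemia, had 15.5, 14.7 and 14.4. Rpl13 had 15.2, 14.8 and 13.7. Rplp0, the base of the stalk on which elongation factors land, had 15.1, 14.2 and 15.0. Rpl30 had 14.9, 14.0 and 14.1. Rps13 of the small subunit had 14.7, 14.6 and 13.2, and Rpl35a had 14.7, 14.2 and 13.2. With the paralogs Rpl7l1, Rps27l and Rpl22l1 these are the members with the 10 highest folds in the series list, apart from Rpl5.

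Genes of the large subunit made up 9 of the 10 members with the lowest folds in the series list. Rpl36 was lowest, with 5.67 in the series list, beside 5.34 in replicate 1 and 5.74 in replicate 2, at chr17:56613209-56613512. Rpl18 had 7.48, 6.99 and 7.61 in the same order. Rpl13a, which can leave the ribosome to silence inflammatory mRNAs, had 7.63, 7.39 and 7.65. Rpl41, the smallest ribosomal protein, had 7.79, 7.57 and 7.61. Rpl35 had 7.95, 7.88 and 7.56, and Rpl26, which sits by the exit tunnel, had 8.25, 8.37 and 8.60. Rpl3 and Rpl8 both reach towards the peptidyl transferase centre. Rpl3 had 8.33, 8.05 and 8.54, and Rpl8 had 8.40, 8.35 and 7.89. Rpl38, known from mouse mutants with altered translation of Hox mRNAs, had 8.83, 8.85 and 7.34. In both replicate lists all 10 lay below 10.4, the median of all promoter regions there.

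The subunits overlapped widely. Core genes of the large subunit had a median fold of 11.7 (range 5.67 to 16.2) in the series list and core genes of the small subunit 12.8 (highest 14.7). In replicate 1 the medians were 11.2 and 11.7, and in replicate 2 they were 11.0 and 12.0. Within the stalk, Rplp0 had 15.1, Rplp1 had 12.9 and Rplp2 had 9.65 in the series list. Rps27a, which is made as a fusion with ubiquitin, had 11.3. Fau, a fused gene outside the rule, had 7.73, and Rack1, a ribosomal protein with an unrelated symbol, had 12.0.

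The replicate lists ordered the members alike. Across the 82 members Pearson's r between the lists was 0.910 and Spearman's rho 0.897, given as a description over genes of the same libraries, beside a Pearson's r of 0.943 over the 9200 genes with a promoter region in both. Every member region of a replicate list overlapped a promoter region in the list of the other by at least 1 bp, beside 96.1% of all promoter regions of replicate 1 and 98.2% of those of replicate 2. With a reciprocal overlap of 50% the share was 97.6% (80 of 82) in either direction, beside 92.7% and 94.5%. Rpl11 stood far above Rpl36 in each list, whereas neighbours in the order of members were not separated: Rpl7l1 and Rps27l, for example, changed places between replicate 1 and replicate 2.

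All 21 genes of the Diamond-Blackfan list that the rule covers had a promoter region in the series list and in both replicate lists. Their median fold was 12.0, the same as the 12.0 of the other 56 core genes. They ran from 7.48 at Rpl18 to 16.2 at Rpl11, so they spanned nearly the full range of the members. Rps19, the gene most often mutated in the disease, had 9.87 in the series list, beside 9.52 in replicate 1 and 10.4 in replicate 2, below the series median of all promoter regions. Rps24 with 9.98, Rps26 with 9.30, Rps15a with 10.2, Rpl8 with 8.40, Rpl26 with 8.25 and Rpl35 with 7.95 also lay below that median in the series list. Small subunit genes of the list above it were Rps7 with 14.0, Rps10 with 12.0, Rps27 with 14.6, Rps28 with 13.5 and Rps29 with 11.7. Large subunit genes above it were Rpl5 with 13.6, Rpl9 with 14.4, Rpl15 with 14.1, Rpl27 with 15.5, Rpl31 with 14.3 and Rpl35a with 14.7. Rps14, whose loss accounts for the anemia of the 5q- syndrome, had 14.3, 13.6 and 13.0 in the series, replicate 1 and replicate 2 lists. The 2 genes of the disease outside the ribosome were Tsr2, the carrier of Rps26, with 15.6 and the erythroid factor Gata1 with 6.43.

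Other genes of the translation machinery gave similar values, and so did the proteasome subunit genes, which have no part in translation. Of 78 mitochondrial ribosomal protein genes, which serve a separate ribosome and were found by the symbols Mrpl and Mrps, 76 (97.4%) had a promoter region, with a median fold of 11.5. Of 40 proteasome subunit genes, 37 (92.5%) did, with a median fold of 12.1. All 17 other genes with TOP mRNAs had a region, with a median of 11.5 and a range from 7.05 at Eef2, the translocase of elongation, to 17.2 at Eif3h, a subunit of the initiation factor eIF3. All 27 ribosome biogenesis genes had one, with a median of 12.2. The highest of these were Tcof1 (17.6), which acts in rRNA transcription, and Ltv1 (16.9), which acts in assembly of the small subunit. All 10 regulators of TOP translation and p53 had a region, with a median of 10.7, among them Larp1 (10.8), Mtor (11.0), Mdm2 (9.73) and Trp53 (6.22). The 11 erythroid markers had a median fold of 6.43 (range 4.11 to 9.36), lower than that of the ribosomal protein genes. No test was made between these lists, and the range of each overlaps that of the ribosomal protein genes.

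**Figure D2:**
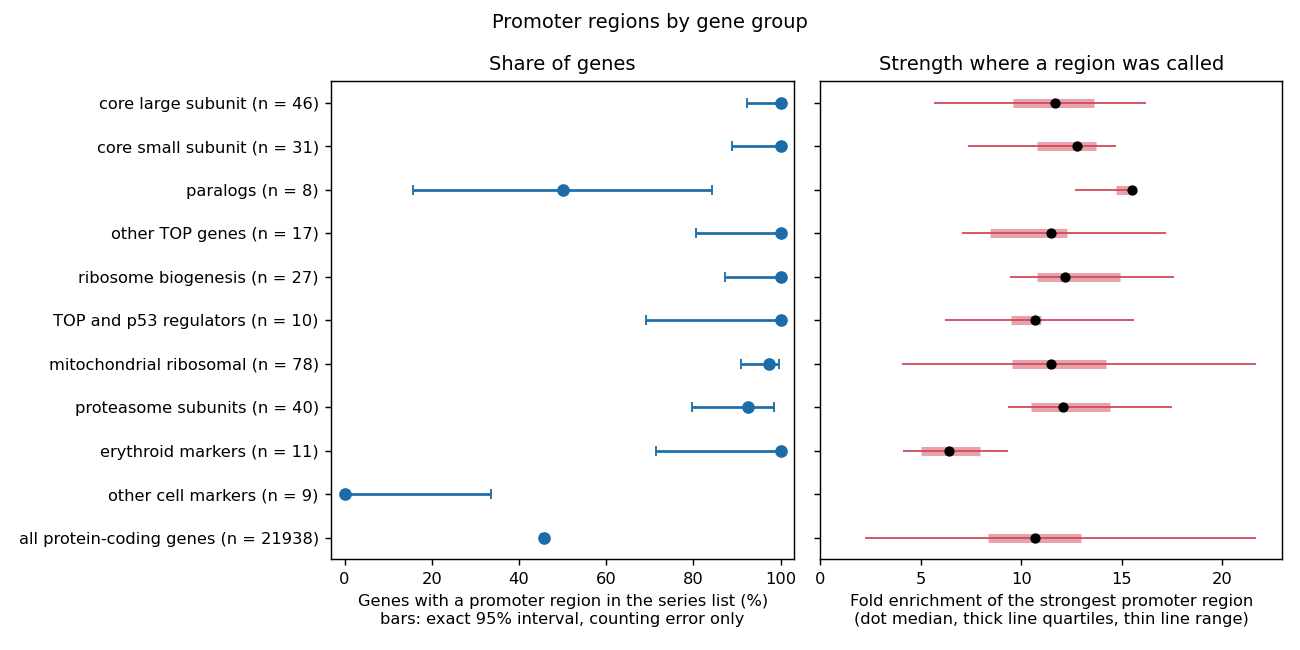
Left, share of genes with a promoter region in the series list (percent) for each gene group, with exact 95% intervals that cover counting error only. Right, fold enrichment of the strongest promoter region where 1 was called, as median (dot), quartiles (thick line) and range (thin line); the core ribosomal protein genes, with medians of 11.7 and 12.8, overlap the mitochondrial ribosomal protein, proteasome and biogenesis genes and lie mostly above the erythroid markers, and the other cell markers had no region.

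The regions were of ordinary width and sat close to the start. Their median width was 952 bp in the series list, beside 943 bp over all promoter regions, and 876 bp and 834 bp in the replicate 1 and replicate 2 lists. The widest were at Rpl27a (1635 bp), Rpl23 (1384 bp), Rpl35a (1373 bp), Rpl34 (1356 bp) and Rps3 (1350 bp). Among the narrowest were those at Rpl36 (304 bp), Rps26 (474 bp), Rplp0 (615 bp) and Rpl31 (622 bp). Rpl36 was thus both the narrowest and the weakest member, whereas Rplp0 was narrow with a high fold. Width in 1 library is not fixed: the region of Rpl27a was 906 bp wide in replicate 1 and 1021 bp in replicate 2, and that of Rpl36 was 311 bp and 268 bp. Of the 82 regions, 74 were merged from more than 1 record. The median number of records per region was 3, the same as over all promoter regions.

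The summit nearest to the principal start, as the position of highest signal within a record, lay upstream of it in 58 members and downstream in 24. The median was 29.5 bp upstream (-29.5 bp), beside -35.0 bp over all promoter regions. It was -18.0 bp in the mitochondrial ribosomal protein genes and -9.00 bp in the proteasome genes. A summit just upstream of the start was thus not particular to the members. It lay within 100 bp of the start in 68 of 82 (82.9%), beside 64.5% of all promoter regions. Among the mitochondrial ribosomal protein genes the share with a summit this close was 86.8%, and among the proteasome genes 86.5%, both at least as high as in the cytosolic genes. The region covered the principal start in 97.6% of members, beside 81.4% of all promoter regions. The 2 members whose strongest region did not cover the principal start were Rpl4, with a region that ended upstream of it (edge at -186 bp), and Rpl41, with a region that began 1189 bp downstream. Both of these regions lay over another gene's promoter.

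**Figure D3:**
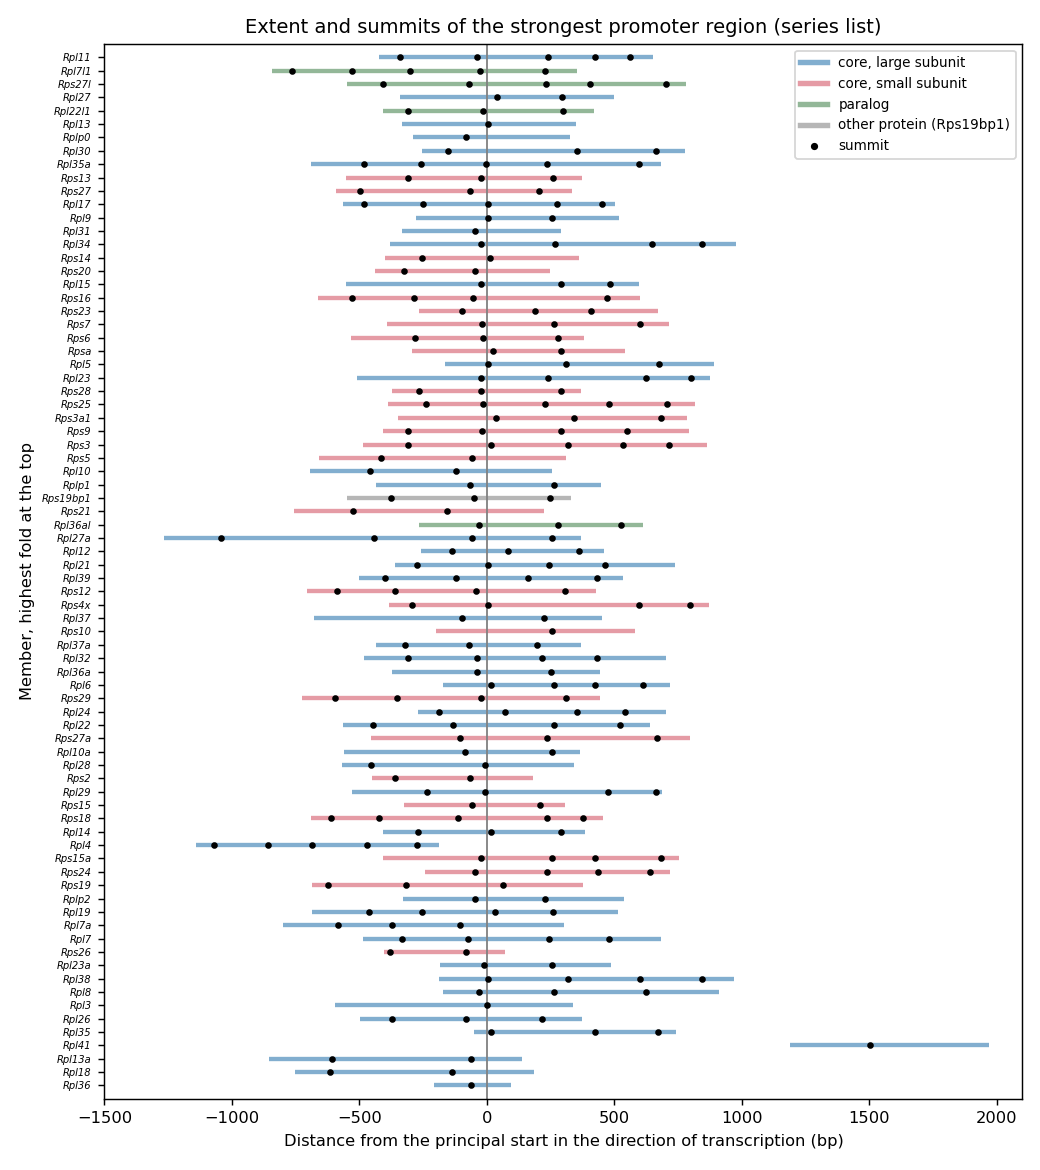
Extent (coloured lines) and summits (black dots) of the strongest promoter region of 78 members in the series list, along the distance from the principal start in bp, with negative values upstream and the member of highest fold at the top. Most regions cover the start at 0 and hold a summit within 100 bp of it (66 of 78); the regions of Rpl4 and Rpl41 lie to the side of the start.

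In 15 members more than 1 region lay in the promoter window, 2 in 12 of them and 3 in Rpl3, Rps18 and Rps26. The share over all protein-coding genes is not given here, so these counts do not show whether this is more frequent among the members. In 13 of the 15 the strongest region was the one over the principal start. At Rpl41 the strongest region, chr10:128547336-128548116, with a fold of 7.79, covers the start of its neighbour Zc3h10. The region over the start of Rpl41 itself, chr10:128548828-128549536, had 7.29 in the series list, beside 7.57 in replicate 1 and 6.73 in replicate 2. At Rpl4 the strongest region, at chr9:64172235-64173189, covers the start of its divergent neighbour Zwilch and had a fold of 10.2. The region over the Rpl4 start, chr9:64173252-64173829, had 8.52 in the series list, beside 9.26 in replicate 1 and 6.83 in replicate 2. For Rpl4, and for Rpl41 in the series and replicate 2 lists, the value quoted as strongest is therefore not that of the region over the start. In replicate 1 the Rpl41 regions were nearly equal, 7.56 over the Zc3h10 start and 7.57 over its own, and the quoted value is the latter.

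Several members share their promoter with a gene that starts in the opposite direction within 1 kb upstream. There were 9 such members (10.5%, beside 6.93% of all protein-coding genes), all with a promoter region, or 11.0% of members with a region beside 14.0% of all genes with one. The closest pair was Rps28 and Ndufa7, a subunit gene of respiratory complex I, with starts 10 bp apart. Rpl9 and Lias were 53 bp apart, Rpl15 and Nkiras1 69 bp, Rpl36al and Mgat2 74 bp, and Rps18 and Vps52 135 bp. Rpl7a and Med22 were 195 bp apart, Rpl35a and Iqcg 263 bp, Rpl4 and Zwilch 271 bp, and Rpl12 and Lrsam1 304 bp. The 9 had a median fold of 12.7, beside 12.1 for the other members with a region. Counting any neighbour, 17 of the 82 regions (20.7%) were also counted as promoter region of another protein-coding gene, beside 25.2% over all promoter regions. For these the same value stands for both genes, and the 1 kb window does not show to which of them the signal belongs.

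The annotated starts carried the TOP signature more often than those of other genes. The principal start base was a C followed by 4 pyrimidines in 8 of 77 core genes (10.4%), beside 2.25% of all protein-coding genes and 2.20% of those with a promoter region. The start base alone was C in 32.5% of core genes, beside 17.5% of all genes. Among them were Rpl4, Rpl32, Rpl36, Rpl37, Rpl37a, Rps21 and Rps24. The share depended on which start was read. With any start of a protein-coding transcript it was 28.6%, beside 5.13% of all genes, with a median of 2 distinct coding starts per gene in both. With the RefSeq start it was 22.8% (13 of 57), beside 2.71%. A run of 8 pyrimidines within 50 bp of the principal start, a measure added after the data were seen, was present in 50 of 77 core genes (64.9%), beside 35.3% of all genes and 31.7% of those with a region. Members with a region had a median observed over predicted CpG ratio of 0.853, beside 0.789 for all genes with a region.

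Motif letters were counted on both strands within 100 bp of the strongest summit and compared with the same window at the promoter regions of all 10049 protein-coding genes that had one. The letters CCGGAAG, the core of sites for ETS factors such as Gabpa, were present at 28 of 82 members (34.1%), beside 19.8% of all promoter regions. The palindrome CTCGCGAG, an element of housekeeping promoters, was present at 10 members (12.2%), beside 1.90%. The letters TATAAA of the TATA box were present at 7 members (8.54%), beside 1.96%. AAGATGGC, bound by YY1, was present at 8.54%, beside 5.09%, and TGACGTCA, the cAMP response element, at 7.32%, beside 3.90%. Within 100 bp these 5 motifs were more frequent among the members than among promoters in general, although the counts behind the last 4 are 10 or fewer.

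Other letters were at or below the level of promoters in general. GGGCGG, the GC box of SP factors, was present at 57.3% of the members, beside 64.6%. CCAAT, the site of NFY, was present at 28.0%, beside 36.6%, and the KLF letters CCACGCCC or CCACACCC at 8.54%, beside 12.8%. GCATGCGC of NRF1 was present at 4.88%, beside 5.20%, and CACGTG, the E-box of Myc and USF, at 4.88%, beside 8.30%. AGATAA or TGATAA, bound by the erythroid factor GATA1, was present at 3.66% of the members (Rpl8, Rpl19 and Rpl36a), beside 6.35%. A match is a description of letters and no measurement of binding. None of these sets of letters contains another, although neighbouring matches can share bases.

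The window used changes some of these shares. Within 50 bp of the summit, ETS letters were present at 19.5% of the members, beside 13.4% of all promoter regions, CTCGCGAG at 7.32% beside 1.13% and TGACGTCA at 6.10% beside 2.84%. TATAAA was present at 2.44% beside 0.736%. The YY1 letters were also at 2.44%, beside 1.94%, a smaller difference than within 100 bp. From 250 bases before to 50 after the principal start, ETS letters were present in 30.5% of members with a region, beside 20.6% of all genes with a region, and CTCGCGAG in 11.0% beside 2.18%. TATAAA was present in 12.2% beside 6.77%, a smaller difference than at the summits, and in 12.6% over all protein-coding genes whether or not they had a region. The E-box letters were present in 11.0% beside 10.4%, so their lower share at the summits did not hold at the starts. GATA letters were present in 11.0% beside 9.97%, and the YY1 letters in 7.32% beside 5.37%.

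**Figure D4:**
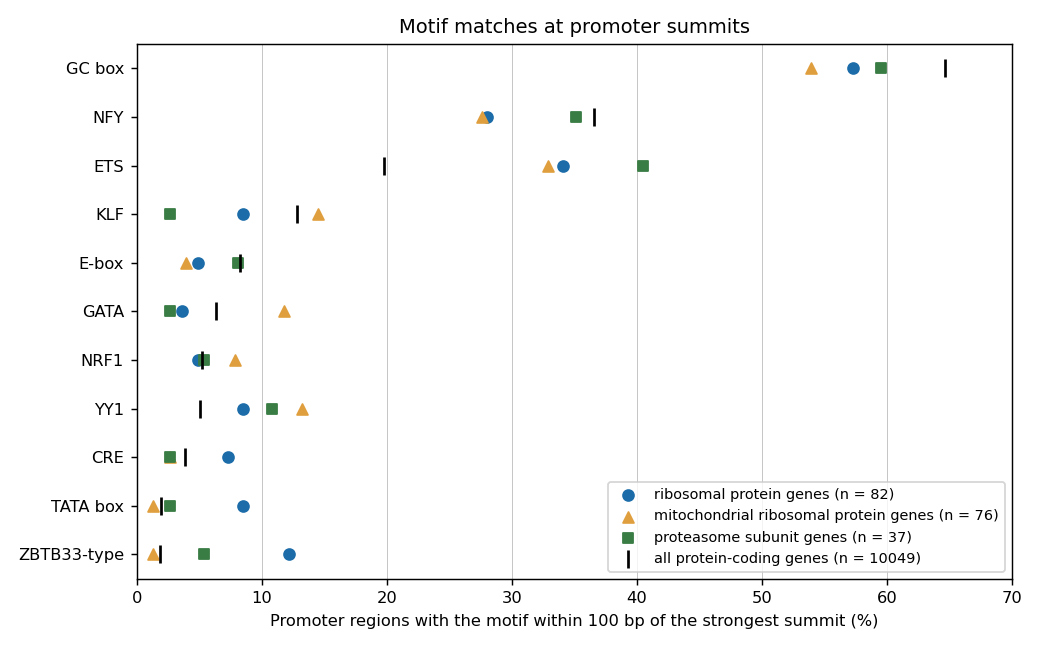
Share of promoter regions (percent) with each motif on either strand within 100 bp of the strongest summit, for the ribosomal protein genes (circles), the mitochondrial ribosomal protein genes (triangles), the proteasome subunit genes (squares) and all protein-coding genes (bars). The ribosomal protein genes lie to the right of the bar at ETS (34.1 against 19.8%), at CTCGCGAG, named ZBTB33-type (12.2 against 1.90%), and at the TATA box (8.54 against 1.96%), and to the left of it at the GC box and NFY.

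The mitochondrial ribosomal protein and proteasome genes shared some of this pattern and not all of it. ETS letters were present at 32.9% and 40.5% of their summits, close to the 34.1% of the cytosolic genes. CTCGCGAG was present at 1.32% (1 of 76) and 5.41% (2 of 37), below the 12.2% of the cytosolic genes, and TATAAA at 1.32% and 2.70%, below 8.54%. The YY1 letters AAGATGGC were present at 13.2% and 10.8%, above the 8.54% of the cytosolic genes, and TGACGTCA at 2.63% and 2.70%, below 7.32%. No test of these differences was made, and the counts are small.

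The sequences that carry these letters are given from RefSeq on GRCm38.p6, 60 bases before to 30 after the RefSeq start base, 5′ to 3′ on the strand of the gene. The RefSeq table held 66 of the 86 members. Rpl11 (chr4:136053364-136053453, minus strand), Rps7 (chr12:28635924-28636013, minus strand) and Rps27l (chr9:66946026-66946115, plus strand) show ETS letters close to the start, on the strand of the gene in Rpl11 and Rps27l and on the other strand in Rps7. Capitals mark CCGGAAG or CTTCCGG.
Rpl11: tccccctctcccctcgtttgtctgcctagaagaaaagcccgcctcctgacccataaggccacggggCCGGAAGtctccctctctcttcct
Rps7: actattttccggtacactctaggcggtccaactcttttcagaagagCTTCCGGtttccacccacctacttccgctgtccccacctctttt
Rps27l: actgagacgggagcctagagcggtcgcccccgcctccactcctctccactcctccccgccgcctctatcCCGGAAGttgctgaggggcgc
In Rpl11 the letters lie just after the RefSeq start and are followed by a pyrimidine-rich stretch. Folds of these 3 genes in the series list were 16.2, 14.0 and 15.6. Rpl7l1 (chr17:46782627-46782716, minus strand), with a fold of 15.6, carries the YY1 letters AAGATGGC after its start, marked in capitals.
Rpl7l1: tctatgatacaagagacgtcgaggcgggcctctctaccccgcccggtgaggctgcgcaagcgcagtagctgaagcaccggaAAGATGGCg

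The palindrome CTCGCGAG is shown for every member whose printed window holds it, because it was the motif with the largest ratio of shares. The windows are chr2:32961652-32961741 (plus strand) for Rpl12, chr11:68901506-68901595 (plus) for Rpl26, chr7:109519135-109519224 (plus) for Rpl27a, chr7:24884532-24884621 (plus) for Rps19, chr17:33824533-33824622 (minus) for Rps28 and chr4:86857338-86857427 (minus) for Rps6.
Rpl12: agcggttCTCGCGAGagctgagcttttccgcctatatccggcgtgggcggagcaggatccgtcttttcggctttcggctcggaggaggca
Rpl26: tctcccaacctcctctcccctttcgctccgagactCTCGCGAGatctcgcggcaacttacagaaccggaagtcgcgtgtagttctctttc
Rpl27a: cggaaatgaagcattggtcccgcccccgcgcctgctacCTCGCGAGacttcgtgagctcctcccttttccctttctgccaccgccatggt
Rps19: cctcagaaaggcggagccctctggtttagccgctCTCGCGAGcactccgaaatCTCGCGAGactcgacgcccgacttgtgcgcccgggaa
Rps28: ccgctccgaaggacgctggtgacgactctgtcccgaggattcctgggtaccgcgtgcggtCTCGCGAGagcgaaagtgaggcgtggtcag
Rps6: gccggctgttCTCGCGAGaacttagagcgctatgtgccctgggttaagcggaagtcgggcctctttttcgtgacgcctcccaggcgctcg
The letters lie upstream of the RefSeq start in Rpl12, Rpl26, Rpl27a and Rps6. In Rps28 they lie at the start, which is 10 bp from that of Ndufa7. The principal start, used above for summits, is another base in Rpl12, Rpl26, Rpl27a, Rps6 and Rps19. Counted from the principal start, the letters lie downstream in Rpl12, Rpl27a and Rps19, upstream in Rpl26 and over that start in Rps6. Rps19 holds the letters at 2 places in this window, upstream of the RefSeq start and ending on the RefSeq start base. Neither place is within 100 bp of its strongest summit, so Rps19 is not among the 10 members counted there. Those included Rpl10a, Rpl12, Rpl17, Rpl26, Rpl27a, Rps6, Rps7 and Rps28. Rpl26 had a fold of 8.25 and Rpl17 one of 14.5, so the letters were found at both strong and weak members.

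The letters TATAAA are shown in the same frame for Rpl22l1 (chr3:28805448-28805537, plus strand), Rpl36a (chrX:134585594-134585683, plus), Rplp0 (chr5:115559407-115559496, plus) and Rps2 (chr17:24720003-24720092, plus), with matches on either strand in capitals.
Rpl22l1: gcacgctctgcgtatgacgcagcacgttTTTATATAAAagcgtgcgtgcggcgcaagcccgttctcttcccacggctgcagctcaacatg
Rpl36a: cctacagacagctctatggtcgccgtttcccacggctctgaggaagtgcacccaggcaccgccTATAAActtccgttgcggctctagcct
Rplp0: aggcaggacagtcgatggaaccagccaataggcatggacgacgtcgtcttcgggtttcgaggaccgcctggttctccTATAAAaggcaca
Rps2: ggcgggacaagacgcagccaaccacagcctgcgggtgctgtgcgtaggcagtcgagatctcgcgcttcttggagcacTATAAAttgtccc
In Rpl22l1 the letters lie upstream of the RefSeq start, where a TATA box acts. Its principal start, chr3:28805436, lies before the printed window, so the letters lie downstream of that start. The order in Rpl22l1 thus depends on which start is read. In Rpl36a, Rplp0 and Rps2 the RefSeq and principal starts are the same base, and the letters lie after it. The annotated start of these 3 genes and the letters are therefore not in the order of a TATA box and its start. Rpl22l1 had a fold of 15.4, Rplp0 15.1, Rpl36a 11.7 and Rps2 10.9 in the series list.

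Regions away from promoters were also assigned to the ribosomal protein genes. A region was called distal when its midpoint lay more than 1 kb from every annotated start, and it was assigned to the protein-coding gene with the nearest start, up to 100 kb away. Of the 86 members, 28 (32.6%) had at least 1 distal region in the series list, beside 25.9% of all protein-coding genes. Among genes with a promoter region the order was the other way, 34.1% of members beside 39.9%. The members had 48 distal regions in all, of which 24 were in both replicate lists and 11 in neither. The replicate lists hold fewer regions than the series list. The share over all distal regions is not given here, so these counts do not show whether the members' regions repeat less well than others. Rpl14 had 5, and Rpl26, Rpl29, Rpl5 and Rps3 had 3 each. The next by number were Rpl11, Rpl3, Rpl32, Rplp1, Rps15a, Rps23, Rps26 and Rps29, with 2 each.

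The strongest distal region, at chr10:128612715-128613343, lay 13.4 kb from the nearest start of Rps26 and outside any gene. Its fold was 14.3 in the series list, beside 12.3 in replicate 1 and 13.2 in replicate 2, above the promoter of Rps26 itself with 9.30, 8.55 and 9.67. The region chr5:146824567-146824939 lay 8.14 kb upstream of Rpl21 and had 13.0, 11.4 and 12.4, close to the 12.4, 11.5 and 12.3 of the Rpl21 promoter. A region at chr16:55951016-55951304, 15.1 kb upstream of Rpl24, had 11.4 in the series list and 10.8 in replicate 2 and was not in the replicate 1 list. Rps26 and Rpl21 were the only 2 of 28 members (7.14%) with both kinds of region whose distal region had the higher fold in the series list, beside 32.0% (1282 of 4008) of all genes with both. At Rpl21 this order was reversed in replicate 1. Assignment by distance does not show which gene a distal region acts on.

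The 5 distal regions of Rpl14 lay between 2.45 and 29.4 kb from its starts. The farthest had a fold of 9.19 in the series list, beside 7.77 in replicate 1 and 8.82 in replicate 2, and 2 of the 5 were in neither replicate list. The 3 regions of Rps3 form a group upstream of it at 16.7, 17.1 and 17.6 kb, with folds of 8.89, 7.37 and 8.38, and all were in both replicate lists. Of the 3 regions of Rpl5, those at 15.2 and 28.8 kb, with folds of 9.23 and 6.51, lie within the neighbouring gene Fam69a. The region of Rps19 lay 1.81 kb from its nearest start, with 9.05, 9.04 and 7.93 in the series, replicate 1 and replicate 2 lists.

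**Figure D5:**
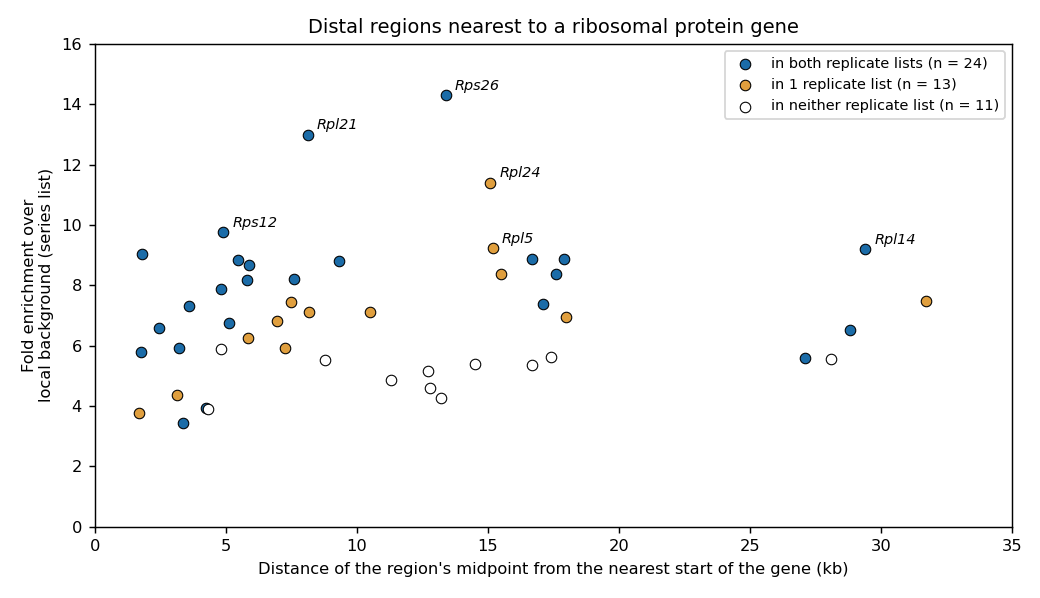
Fold enrichment in the series list (vertical axis) of the 48 distal regions nearest to a ribosomal protein gene against the distance from the nearest start in kb. Blue points were in both replicate lists (24), orange points in 1 and white points in neither (11); the regions nearest to Rps26 (14.3), Rpl21 (13.0) and Rpl24 (11.4) stand above the others, and the regions found in neither list have folds of 5.88 or less.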

How the data were processed

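The processed data were peak lists of 2 ATAC-seq libraries on mm10, which the authors deposited as tables of records. Peaks were called for each library alone and for both together, per the deposited file listing, and the authors derived the thresholded and overlap lists from the alignments and a further file. Aligner, peak caller, versions and treatment of duplicate and multiply placed reads: not given in the sources used here. Deposited columns were a score capped at 1000 (lowest 540 in the IDR lists), a fold enrichment, which is a ratio over local background computed by the authors, −log10 p values of the authors, and the summit offset in bp. All 82 member regions had the capped score, as did 88.4% of all promoter regions, so strength was read from the fold.

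Records that overlapped or touched were merged with Python 3.11.15, pandas 2.3.3 and numpy 2.4.6, and the region steps were tested on simulated lists. Starts came from GENCODE M21 and sequences from GRCm38.p6. CpG ratios were taken from 250 bases before to 50 after the principal start. All 15 members with several regions were given their strongest. With 1 group there was no test. The members and lists were chosen with earlier results of these data known. Named genes were the members without a region, the 10 highest and 10 lowest folds, the 5 widest and 5 narrowest regions, those with most distal regions, the Diamond-Blackfan list, divergent pairs and paralogs. Others named as examples were chosen after their values were seen. Alternatives were other lists, each library alone, windows of 500 bp and 2 kb, other starts, a domain of 50 kb, only the upper 50% of regions and motif windows of 50 bp. Results of some genes are not reported here, in the text or in the plots by member, although counts and medians over the members include them.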

Additional observations from a re-analysis of the deposited data

How the results depend on the processing

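The share of members with a promoter region was 95.3% under every list, window and choice of start tried, 91.9% with only the upper 50% of regions by fold, and 100% in the core genes alone. The median fold of 12.3 was 12.4 with the upper 50% of regions, 12.0 in the core genes and 11.7 in either replicate list. The median percentile of 84.3 ranged from 84.3 to 84.9 without 1 library and was 84.9 with a window of 2 kb, 83.9 in the core genes, 83.9 by −log10 p and 68.6 among genes with a region. The median width of 952 bp was 834 to 876 bp without 1 library. The median summit position of -29.5 bp was -35.0 to -29.5 bp without 1 library, -22.0 bp from the nearest start of any transcript, -22.5 bp for the strongest summit and -52.5 bp from the RefSeq start. TOP-type starts moved most, from 10.4% to 28.6% within 5 bp of the start, 28.6% at any coding start and 22.8% at the RefSeq start. Within 5 bp the share over all protein-coding genes also rose, from 2.25% to 18.2%, so there the members stood less far above it. The share was 64.9% for a run of 8 pyrimidines within 50 bp, which is a looser measure by construction. The share of members with a distal region, 32.6%, was 44.2% in the overlap list of true replicates and 16.3% with the upper 50% of regions, lists that hold more and fewer regions. The other alternatives for these results and for the sharing of regions between libraries stayed within the interval of the value. No paired analysis was possible because the labels give 1 group and there is nothing to pair. Read depth is unknown from peak lists, so an absent region means that none passed the authors' threshold.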

Other observations

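Ribosomal protein genes are hosts of small nucleolar RNAs, which guide the modification of ribosomal RNA and are cut from introns. In the annotation 30 of the 77 core genes (39.0%) contained snoRNA genes, 58 in all, beside 1.27% of all protein-coding genes and 2.05% of those with a promoter region. Rpl4 contained 5 and Rpl13a contained 4. The hosts had a median fold of 12.4 (30 genes), beside 11.7 for the 47 core genes that contain none. Only 1 of the 21 Diamond-Blackfan genes, Rpl5, was a host, beside 29 of the other 56 core genes, a property of the annotation rather than of these libraries.

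The mouse genome also holds many processed pseudogenes of these genes, copies of the mRNA without the promoter. Of 294 pseudogenes whose symbol marks them as ribosomal protein pseudogenes, 1 (0.340%) had a region over its body in the series list, beside 132 of 9940 (1.33%) of all processed pseudogenes. That was Rpl29-ps2, whose region, chr13:4608692-4609415 with a fold of 11.5, lay 64 bp from a start of Akr1e1. The 6 protein-coding genes with -ps in the symbol that the rule left out, such as Rpl9-ps6 and Rps12-ps3, had no promoter region. The sources used here do not say how reads that match several copies were placed, and its part in these counts was not tested.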
